A study of Mus musculus with 9 samples.

Results

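This comparison set 2 kinds of splenic B cell of the mouse side by side: BDL, mature B cells with little or no surface IgD, and marginal zone (MZ) B cells. It compared the 3 BDL and the 3 MZ libraries of an RNA-seq series of 9, in which the remaining 3 libraries hold follicular (FO) B cells. FO levels are given for reference, and the FO libraries also entered the choice of genes and the spread behind the p-values. A gene was a member when its FPKM averaged 0.5 or more across all 9 libraries, which held for 11597 of the 24459 rows of the table. FPKM, fragments per kilobase of transcript, scaled to the number of mapped fragments, is a level that allows for gene length and depth.

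The cells came from spleens of naive mice 8 to 10 weeks old, and the labels name no transgene and no agent. Per the labels, BDL were B220+IgMintCD21intCD23+CD93- with low IgD, FO B cells carried those markers with high IgD, and MZ B cells were B220+IgMhiCD21hiCD23-CD93-. Each library was made from a pool of 5 mice. Its title carries 1 of 3 dates, and each date has 1 library of every subset, so that replicates 1 to 3 are the 3 dates. The titles do not say which step the dates mark. The strain is C57/BL6 in the labels and B10.PL in the study's text, and which of these holds was not tested.

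MZ B cells lie at the border of the white pulp of the spleen, where blood enters, and answer blood-borne antigens quickly. Their formation depends on Notch2 signals, they are held in place by integrins and sphingosine 1-phosphate receptors, and they carry much CD21 and CD1d. FO B cells recirculate through the follicles, follow CCR7 into lymph nodes, and take part in germinal centre responses. Both kinds arise from transitional B cells in the spleen. BDL were described as a subset of the follicular gate that supports regulatory T cells.

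Cd79a, a signalling chain of the B cell receptor, measured 1413, 1376 and 1762 FPKM in BDL and 930.1, 969 and 1286 FPKM in MZ replicates 1 to 3, and its partner Cd79b 972, 861 and 1159 FPKM and 758, 593 and 998 FPKM, so both subsets carried their defining RNA at high level. The genes of the sorted surface proteins followed the gates and are a description only, since the gates chose the cells by those proteins. Fcer2a, which encodes CD23, measured 417, 389 and 476 FPKM in BDL and 28.4, 34.5 and 26.1 FPKM in MZ cells. For Cr2, which encodes CD21 (and CD35), the levels were 109, 97.8 and 115 FPKM and 456, 400 and 505 FPKM. Ptprc, which encodes CD45 and its B220 form, was at 274, 271 and 368 FPKM and 220.5, 214 and 272 FPKM. Cd93 RNA was present at 10.2, 15.9 and 11.5 FPKM in BDL and 1.36, 1.74 and 1.12 FPKM in MZ cells, although the labels give both gates as CD93 negative. In the study's staining, surface CD93 was highest on BDL among BDL, FO and MZ B cells. The study calls that increase marginal and gives the refined BDL phenotype as CD93int. The table used here holds no row for Ighd or Ighm, so IgD itself was not measured.

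The libraries held an estimated 54100000 to 72800000 fragments each, read from the steps between low FPKM values, and 1 fragment on a gene of 1 kb was then worth 0.0137 to 0.0185 FPKM. On replicate date 2, all 3 subsets had more S100a8, Lyz2 and Nkg7 RNA, genes of myeloid and NK cells, than on the other dates. S100a8 was at 2 to 2.82 FPKM in the 3 libraries of that date and at 0 to 0.536 FPKM in the other 6. Of the symbols, 271 stand on more than 1 row, and 132 rows of this kind were tested, of which 4 were called higher and 2 lower.

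A gene was called when limma gave an adjusted p under 0.05 and the mean difference on log2(FPKM + 0.1) was at least 1, that is 2-fold. By this rule 402 rows were higher in BDL than in MZ cells, 3.47% of those tested, and 503 were lower, 4.34%. Counts of list members below are to be read beside these shares. The median log2 difference over all tested rows was 0.06. On the log2 scale, the FO mean lay nearer to MZ than to BDL for 69 of the 402 rows and 40 of the 503. Most called differences therefore part MZ cells from FO B cells more than they part BDL from FO B cells. Every called row had levels that did not overlap between the 3 BDL and the 3 MZ libraries. The call rule favours such rows, so this is a description and no support for the calls. Among the genes higher in BDL, 113 differed at least 4-fold and 10 at least 16-fold. Of those lower in BDL, 167 differed at least 4-fold and 33 at least 16-fold. Many of the differences were between near absence and presence: 97 genes higher in BDL had a mean under 0.5 FPKM in MZ cells, and 107 genes lower in BDL had a mean under 0.5 FPKM in BDL. Abundant genes were called too, with 177 of the genes higher in BDL at a mean of 10 FPKM or more there and 205 of the genes lower in BDL at 10 FPKM or more in MZ cells. Calls were more frequent at low level, with 16.4% of the 1830 rows under 2 FPKM called and 6.88% of the 1236 rows at 50 FPKM or more, and a gene that passed the minimum through 1 subset alone had to differ. In bulk libraries, fewer cells that carry an RNA and less of that RNA per cell cannot be told apart, and this holds for every gene below. Fold changes are on the log2(FPKM + 0.1) scale, which understates the change of low genes. The p-values, from limma with adjustment over the 11597 rows, rest on the spread between 3 pools per subset, with the FO libraries included in that estimate. The value after ± is the standard error of the log2 fold change. A value given with a setting, such as a library left out, is the log2 fold change or the adjusted p under that setting.

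**Figure D1:**
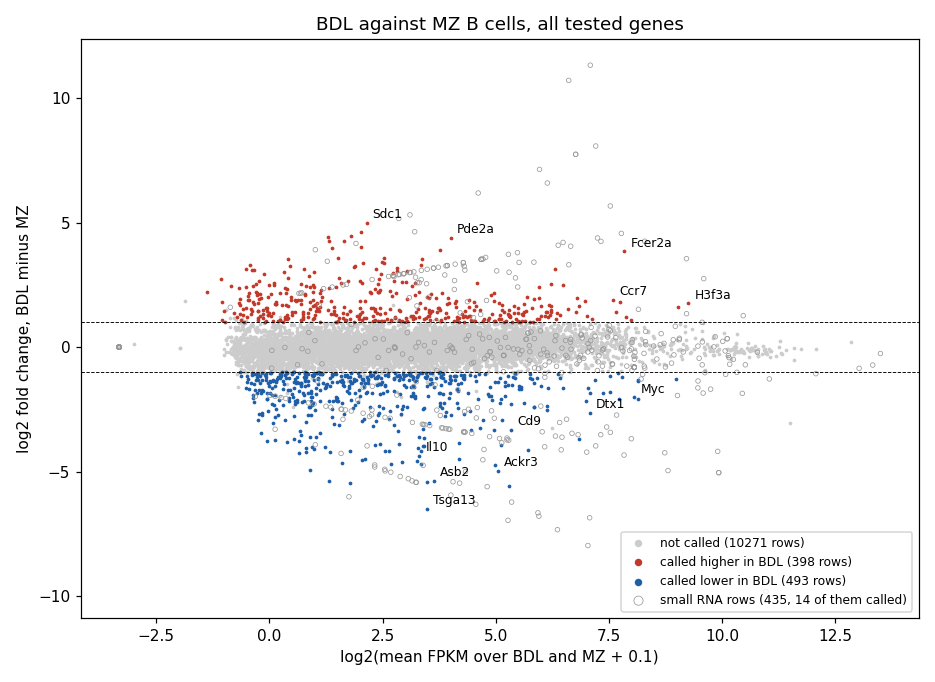
Each point is a tested row, with the log2 of its mean level over BDL and MZ libraries on the x axis and the log2 fold change, BDL minus MZ, on the y axis. Red points are the 398 rows called higher in BDL and blue points the 493 called lower, without small RNA rows, open circles are the 435 small RNA rows (14 called), and dashed lines mark a 2-fold difference. Called genes reach from about the lowest tested levels to the most abundant ones, with Sdc1 the highest and Tsga13 the lowest of the coloured points outside rows of repeated symbols.

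The largest fold higher in BDL, small RNAs and repeated symbols left out, was that of Sdc1 (chr12:8778129-8800521, + strand, NCBIM37), which encodes syndecan-1, the CD138 of plasma cells. It measured 6.86, 8.96 and 9.59 FPKM in BDL replicates 1 to 3 and 0.114, 0.289 and 0.129 FPKM in MZ replicates, 31.8-fold higher (log2 fold change 4.99 ± 0.25, adjusted p = 6.55e-06). Rgl1, a guanine nucleotide exchange factor for Ral GTPases, was at 6.91, 7.69 and 8.65 FPKM against 0.172, 0.292 and 0.209 FPKM (log2 fold change 4.61 ± 0.15, adjusted p = 1.78e-06). Lef1, a nuclear effector of Wnt signals found in B cell precursors, stood at 6.04, 6.76 and 6.85 FPKM against 0.226, 0.336 and 0.0915 FPKM (log2 fold change 4.47 ± 0.29, adjusted p = 2.21e-05). All 3 genes were close to absent from every MZ library, and their means in FO B cells were 1.5, 2.89 and 1.06 FPKM. Ndrg1, Pde2a, Rgs13, 1100001G20Rik, Wfdc17, Car2, Myadm, Fcer2a and Csrp2 filled the rest of the 12 largest folds, between 12-fold for Csrp2, a LIM domain protein, and 21.7-fold for Ndrg1. Pde2a, a phosphodiesterase that degrades cyclic AMP and cyclic GMP, had means of 30.4 FPKM in BDL, 25.6 FPKM in FO and 1.41 FPKM in MZ cells. Wfdc17, a small secreted protein, was at 7.87, 7.9 and 6.87 FPKM in BDL and 0.388, 0.611 and 0.198 FPKM in MZ cells. Ndrg1 measured 4.44, 4.47 and 4.91 FPKM against 0.153, 0.11 and 0.0912 FPKM.

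Lower in BDL by the largest fold was Tsga13 (chr6:30846981-30865573, - strand), a testis-associated gene, with 0.0718, 0.241 and 0.125 FPKM in BDL and 23.7, 28.2 and 14.2 FPKM in MZ cells, 90-fold lower (log2 fold change -6.49 ± 0.33, adjusted p = 6.49e-06). Asb2, a substrate adaptor of a cullin ubiquitin ligase, measured 0.507, 0.484 and 0.44 FPKM and 21.5, 20.3 and 30.6 FPKM (log2 fold change -5.37 ± 0.17, adjusted p = 1.78e-06). For both of these genes every MZ library lay far above every BDL library. Rap1gap, which turns off the Rap1 GTPase that activates integrins, stood at 0.593, 0.655 and 0.154 FPKM against 20.4, 23.3 and 21.6 FPKM (log2 fold change -5.42 ± 0.37, adjusted p = 2.77e-05). The calcium channel gene Trpm2 measured 0.138, 0.157 and 0.0967 FPKM against 5.44, 6.3 and 5.36 FPKM, and the protease inhibitor gene Serpine2 0.382, 0.382 and 0.33 FPKM against 10.7, 10 and 16.1 FPKM. I830077J02Rik, Ube2e2, Ackr3, Zfp532, S1pr3 and Pla2g7 were 6 more of the 12, between 26.1-fold and 47.3-fold lower in BDL. Pla2g7 encodes an enzyme that breaks down platelet-activating factor, and Ptafr, the receptor for that lipid, was also near absent from BDL, with 0.0937, 0.14 and 0.129 FPKM against 3.12, 3.52 and 4.28 FPKM in MZ cells (log2 fold change -4.08 ± 0.29, adjusted p = 2.99e-05).

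Ranked by the difference in mean FPKM instead of the fold, more abundant genes led. H3f3a, which encodes the replacement histone H3.3, had the largest gap upward, 815, 799 and 1216 FPKM in BDL and 246, 249 and 332 FPKM in MZ cells, and the predicted gene Gm12657 had 288, 277 and 434 FPKM against 84.6, 85.6 and 108 FPKM. Histone H3.3 genes have close copies, so how reads were split among them is uncertain. Faim3, the Fc receptor for IgM, followed with 722, 673 and 971 FPKM against 247, 235 and 287 FPKM (log2 fold change 1.61 ± 0.16, adjusted p = 0.000165). Lsp1, an actin-binding protein of leukocytes, was at 303, 293 and 389 FPKM against 129, 129.5 and 162 FPKM (log2 fold change 1.23 ± 0.14, adjusted p = 0.000389), and Msn, which encodes the membrane linker moesin, at 298, 304 and 442 FPKM against 147, 148 and 187 FPKM (log2 fold change 1.10 ± 0.17, adjusted p = 0.00211). The call of Msn was lost without BDL replicate 3 (log2 fold change 0.91) and with upper quartile scaling (0.99). Downward, the largest gaps were those of Nr4a1, Cr2, Myc, Pdia4, Ppp1r15a, Ly6a, Pim1 and Dtx1. Ly6a, which encodes Sca-1, measured 171, 166 and 147 FPKM in BDL and 376, 363 and 467 FPKM in MZ cells (log2 fold change -1.31 ± 0.14, adjusted p = 0.000262). Pim1, a serine/threonine kinase of growth and survival, measured 77.8, 100.5 and 70.4 FPKM in BDL and 231, 318 and 308 FPKM in MZ cells (log2 fold change -1.78 ± 0.20, adjusted p = 0.000375). Myc measured 109, 106 and 102 FPKM and 379.8, 390.3 and 518 FPKM, 4.03-fold lower in BDL (log2 fold change -2.01 ± 0.14, adjusted p = 2.67e-05).

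The gene lists from here on were written with earlier results of these data known, so their counts and medians are descriptions. Marker genes of MZ B cells were lower in BDL almost throughout. Of 19 tested markers, 14 were lower, 0 higher and 5 not called, with a median log2 difference of -2.52 beside 0.06 over all genes. Under the other settings tried, the median stayed between -2.63 and -2.34 and the count between 14 and 15. Cd1d1, the molecule that shows lipids to NKT cells, was at 22, 24.9 and 15.4 FPKM in BDL and 123, 147 and 89.2 FPKM in MZ cells (log2 fold change -2.52 ± 0.22, adjusted p = 7.97e-05). The neighbouring gene Cd1d2, a near copy with which reads could be shared, was lower by a like amount, 6.21 FPKM against 36.9 FPKM. Cd9, a tetraspanin of MZ and B-1 cells, measured 7.66, 7.41 and 6.89 FPKM and 65.2, 77.2 and 79.1 FPKM (log2 fold change -3.31 ± 0.11, adjusted p = 1.78e-06). Myof, which encodes the membrane repair protein myoferlin, stood at 4.17, 4.23 and 4.11 FPKM against 59.9, 56.5 and 77.2 FPKM (log2 fold change -3.91 ± 0.12, adjusted p = 1.78e-06). For Cd9 and Myof, BDL lay above FO B cells, whose means were 1.98 and 1.65 FPKM, and far below MZ cells. Fcrl5, an Fc receptor-like protein, and Cd36, a scavenger receptor, showed the same order, with means of 18.3 and 21.6 FPKM in BDL, 5.79 and 10.5 FPKM in FO and 96.7 and 69.4 FPKM in MZ cells. Plac8, Nid1, Cd38 and Ebi3 were not called at log2 fold changes between -0.92 and -0.54, each under 2-fold, and Pik3ip1 was at 0.55. Cr2, a gate gene, is among the 14.

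FO marker genes stood the other way. Of 18 tested, 11 were higher in BDL, 0 lower and 7 not called, with a median of 1.43, and all 11 calls were kept under each setting tried. Zfp318, the nuclear factor that IgD splicing requires, was at 50.4, 47.8 and 55.5 FPKM in BDL, 11.3, 11 and 11.3 FPKM in MZ cells and a mean of 68.8 FPKM in FO B cells (log2 fold change 2.18 ± 0.09, adjusted p = 2.83e-06, BDL against MZ). Cd55, a complement regulator, measured 190.2, 171 and 224 FPKM and 56.6, 48.4 and 58 FPKM (log2 fold change 1.84 ± 0.13, adjusted p = 3e-05). Satb1, a chromatin organizer, measured 26.4, 28 and 33.3 FPKM and 9.89, 9.81 and 12.4 FPKM (log2 fold change 1.44 ± 0.12, adjusted p = 6.74e-05). Klf2, Icosl, Cxcr5, Cnr2, Stk17b, Fcrl1 and Cr1l were not called, at log2 fold changes from -0.41 to 0.60. Fcer2a, a gate gene, is among the 11. Lef1 is among them too, although its mean was 1.06 FPKM in FO B cells and 6.55 FPKM in BDL. It is counted again in the list of transitional and immature B cell genes below.

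Genes known from transitional and immature B cells had the highest median of the lists that hold at least 10 tested genes, 2.55. Of 11 tested genes, 7 were higher in BDL and 0 lower. The rank is a description, since members were chosen with earlier results known. Vpreb3, which assists immunoglobulin assembly in early B cells, was at 114, 119 and 149.5 FPKM in BDL and 18.6, 23.4 and 22.9 FPKM in MZ cells (log2 fold change 2.55 ± 0.14, adjusted p = 1.03e-05). Sox4, a transcription factor of B cell precursors, measured 4.09, 4.46 and 7.11 FPKM and 0.318, 0.364 and 0.318 FPKM (log2 fold change 3.58 ± 0.22, adjusted p = 1.64e-05). Endou, an endoribonuclease of B cells, stood at 14.3, 11.9 and 11.3 FPKM against 1.67, 1.24 and 1.01 FPKM (log2 fold change 3.19 ± 0.17, adjusted p = 8.26e-06). Myb, needed in early B cells, was the most uneven of the 7, with 16.9, 20.7 and 6.99 FPKM in BDL and 2.85, 3.75 and 1.23 FPKM in MZ cells (log2 fold change 2.46 ± 0.47, adjusted p = 0.00576). In both subsets the level of Myb was lowest in replicate 3. Sox4, Endou, Myb, Rgs13 and Lef1 were low in FO B cells as well, with FO means of 1.01, 1.19, 1.24, 0.221 and 1.06 FPKM. The genes of earlier stages were not part of this: Rag1, Rag2, Dntt, Igll1, Vpreb1, Il7r and Bex6 had means below the tested level. Cd24a, Tcf7, Spib and Tmsb10 were not called, at 0.07, 0.39, 0.52 and 0.96. Cd93 is a gate gene and one of the 7.

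Genes of B-1 cells split between the subsets, with 5 of 19 tested genes higher and 6 lower in BDL. Higher in BDL were Spn, the CD43 of B-1 cells, the large membrane-associated protein gene Ahnak, the calcium-binding S100a6, the galectin Lgals1 and the repressor Zbtb32, whose call was lost without BDL replicate 1, BDL replicate 2, MZ replicate 2 or MZ replicate 3 (adjusted p = 0.0529 to 0.0564). Spn measured 6.89, 5.65 and 8.34 FPKM against 1.06, 1.15 and 0.965 FPKM (log2 fold change 2.59 ± 0.15, adjusted p = 1.13e-05) and Ahnak 20.6, 17 and 17.5 FPKM against 2.04, 2.31 and 1.13 FPKM (log2 fold change 3.31 ± 0.24, adjusted p = 3.62e-05). Lower were Tbc1d9, Cd9, Cd300lf, Ccr1, Fgl2 and Plscr1, with Tbc1d9, a protein with a Rab GTPase-activating domain, at 1.27, 1.13 and 1.13 FPKM against 17.1, 18.7 and 24.1 FPKM (log2 fold change -3.96 ± 0.16, adjusted p = 2.81e-06). The germinal centre list had 8 tested genes, of which Bcl6 and Rgs13 were higher in BDL and 0 lower. S1pr2 and Gcsam, which mark germinal centre cells, were below the tested level.

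**Figure D2:**
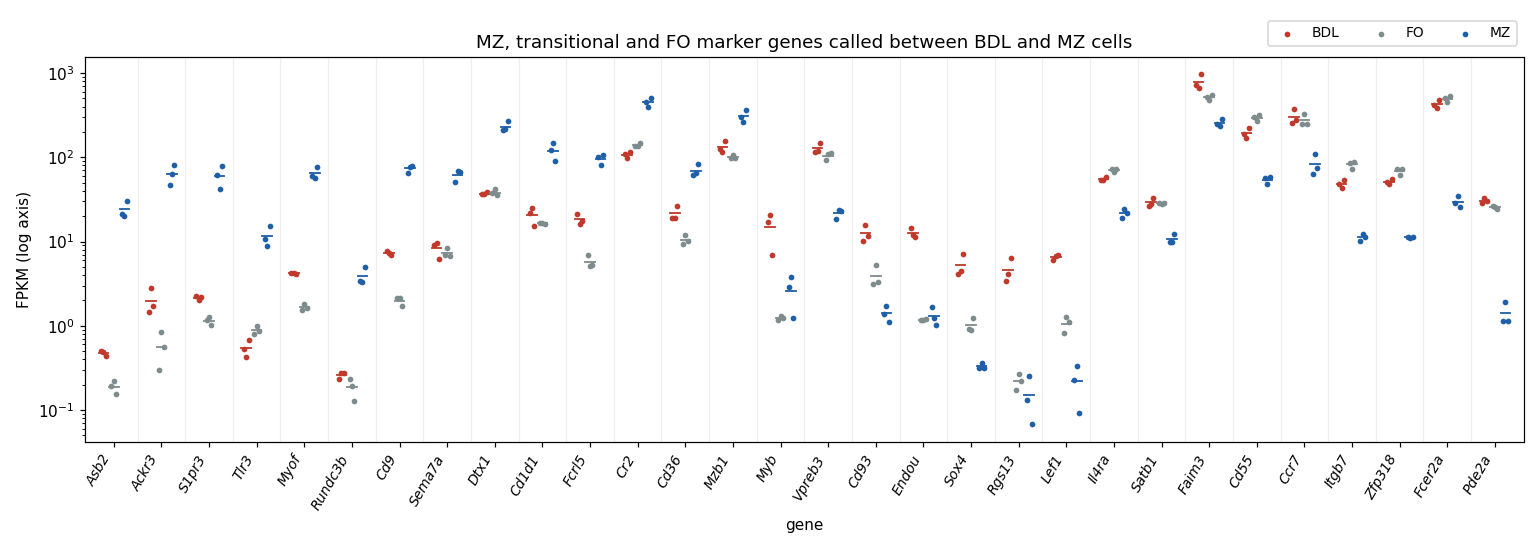
FPKM (log axis) of called MZ, transitional and FO marker genes in each library, 3 points per subset with a bar at the mean, for BDL (red), FO (grey) and MZ (blue) cells. From Asb2 to Mzb1 the blue points lie above the red ones, and from Myb to Pde2a the red points lie above the blue ones. Cr2, Fcer2a and Cd93 belong to the sorting gates.

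Among 29 core transcription factors of the B lineage, 5 were higher and 2 lower in BDL, with a median of 0.26. Bach2, a repressor that holds back plasma cell differentiation, was at 37.2, 42.2 and 44.1 FPKM in BDL and 6.59, 7.62 and 6.03 FPKM in MZ cells (log2 fold change 2.60 ± 0.10, adjusted p = 2.73e-06). Bcl6, the repressor of germinal centre B cells, measured 27.5, 26.1 and 25.6 FPKM and 6.84, 8.94 and 7.03 FPKM (log2 fold change 1.79 ± 0.12, adjusted p = 2.37e-05). Prdm1, which encodes Blimp-1 and drives plasma cell differentiation, went the other way with 0.725, 1.18 and 0.885 FPKM against 3.5, 5.41 and 4.25 FPKM (log2 fold change -2.12 ± 0.30, adjusted p = 0.00118). Spic, an Ets factor, was lower in BDL, 0.686 FPKM against 3.43 FPKM. Mef2c was higher at 1.14, and at 0.95 without BDL replicate 3. Gfi1, a repressor of early lymphoid cells, had the widest error of the 5, with 8.21, 14.9 and 4.02 FPKM in BDL and 1.44, 2.77 and 0.846 FPKM in MZ cells (log2 fold change 2.31 ± 0.53, adjusted p = 0.0134). Ebf1, a factor that sets B cell identity, did not pass the test, with 59.6 FPKM in BDL and 59.8 FPKM in MZ cells. Of the E proteins and their Id inhibitors, 1 of 5 was called: Id2, an inhibitor of E proteins, was at 2.82, 5.93 and 3.75 FPKM in BDL and 19.2, 31 and 26.1 FPKM in MZ cells (log2 fold change -2.62 ± 0.42, adjusted p = 0.00251). Tcf4 was at -0.72 and Tcf3 at 0.48, both under 2-fold. In the Wnt list, Wnt10a, a ligand, measured 2.69, 1.79 and 2.52 FPKM and 0.127, 0.142 and 0.0597 FPKM (log2 fold change 3.54 ± 0.27, adjusted p = 4.62e-05) and the corepressor Tle1 2.99, 2.73 and 3.25 FPKM and 0.792, 0.829 and 0.918 FPKM, while Rnf43, which removes Wnt receptors, was lower in BDL (log2 fold change -1.71, but -0.95 with 1 FPKM added, below 2-fold). With Lef1, 3 of 21 tested Wnt genes were higher and 1 lower. Of 12 Kruppel-like factors only Klf10 passed, at 1.03, and its log2 fold change was 0.93 with upper quartile scaling and 0.58 with 1 FPKM added.

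Notch receptors signal by releasing a fragment that joins the DNA-binding protein RBPJ and its Mastermind partners, and Hes and Dtx genes are among the known targets. The receptor genes themselves did not pass the test: Notch2 was at 43.5, 43.8 and 48 FPKM in BDL and 50.3, 52.8 and 65.8 FPKM in MZ cells (log2 fold change -0.31, adjusted p = 0.082), and Notch1 at 3.54 and 4.64 FPKM. Of 30 tested genes of the pathway, 4 were lower in BDL (Dtx1, Hes1, Hes5 and Dtx4), 2 higher (Maml3 and Lfng) and 24 not called, with a median of -0.01. With 1 FPKM added, Dtx4 was no longer called and 3 were lower. Dtx1, a Notch target that MZ B cells carry in quantity, measured 36.3, 36.5 and 38.8 FPKM and 210.2, 214 and 271 FPKM (log2 fold change -2.63 ± 0.12, adjusted p = 3.42e-06). Hes1, a target gene and repressor, stood at 10.8, 8.73 and 15.9 FPKM against 41.2, 33.8 and 66.4 FPKM (log2 fold change -1.97 ± 0.28, adjusted p = 0.00121), and Hes5 at 1.43, 1 and 1.11 FPKM against 3.56, 2.69 and 4.19 FPKM (log2 fold change -1.48 ± 0.19, adjusted p = 0.000862). Lfng, a glycosyltransferase that modifies Notch, measured 12.1, 10.5 and 13.9 FPKM against 4.87, 4.09 and 6.23 FPKM (log2 fold change 1.26 ± 0.18, adjusted p = 0.00152). In FO B cells the means of Dtx1, Hes1 and Hes5 were 38.2, 19.3 and 0.558 FPKM.

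The promoters of 3 of these genes are shown because the letters that RBPJ is known to bind, TGGGAA, can be looked for in them. They run from 250 bases before to 50 bases after the gene start, 5′ to 3′ on the strand of the gene, as RefSeq gives them on GRCm38.p6. Capitals mark TGGGAA or its reverse complement TTCCCA. Hes5 (chr4:154960673-154960972, + strand) and Dtx1 (chr5:120711620-120711919, - strand) were lower in BDL, and Lfng (chr5:140607091-140607390, + strand) was higher.
Hes5: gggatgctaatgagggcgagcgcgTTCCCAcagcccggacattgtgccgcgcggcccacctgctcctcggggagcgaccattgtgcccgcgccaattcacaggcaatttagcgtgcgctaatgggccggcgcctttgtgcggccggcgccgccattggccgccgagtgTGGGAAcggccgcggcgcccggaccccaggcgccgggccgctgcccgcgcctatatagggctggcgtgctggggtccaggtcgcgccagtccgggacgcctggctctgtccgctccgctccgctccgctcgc
Dtx1: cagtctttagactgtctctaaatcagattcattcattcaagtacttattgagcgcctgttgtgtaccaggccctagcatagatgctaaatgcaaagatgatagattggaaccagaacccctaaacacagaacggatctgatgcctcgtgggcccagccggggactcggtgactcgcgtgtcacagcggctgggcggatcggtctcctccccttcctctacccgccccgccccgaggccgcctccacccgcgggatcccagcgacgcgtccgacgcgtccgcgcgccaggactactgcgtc
Lfng: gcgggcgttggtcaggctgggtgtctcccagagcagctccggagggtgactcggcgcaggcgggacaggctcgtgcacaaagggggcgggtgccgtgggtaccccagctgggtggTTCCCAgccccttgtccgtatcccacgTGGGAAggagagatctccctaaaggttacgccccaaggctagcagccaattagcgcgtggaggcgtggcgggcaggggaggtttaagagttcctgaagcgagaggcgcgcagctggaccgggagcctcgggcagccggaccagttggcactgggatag
Hes5 and Lfng held 2 matches each and Dtx1 held 0. Of the 6 called Notch genes, 4 had a promoter in the table used, and 3 of these held a match (Hes5, Lfng and Maml3), among them 1 gene lower and 2 higher in BDL. Over all 32851 promoters of that length, 25.6% held one, so the letters are common, and a match is a description and no binding site.

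Receptors and adhesion molecules that place B cells in tissue differed in both directions. Among 12 tested chemokine receptors, 2 were higher in BDL and 3 lower. Ccr7, which guides cells into lymph nodes and T cell zones, was at 252, 375 and 280.5 FPKM in BDL and 63.7, 108 and 74.9 FPKM in MZ cells (log2 fold change 1.89 ± 0.23, adjusted p = 0.000514). Cxcr4, the receptor of CXCL12, measured 148, 222 and 174 FPKM and 61.1, 99.4 and 66.9 FPKM (log2 fold change 1.27 ± 0.22, adjusted p = 0.00375). Ackr3, which also binds CXCL12 and takes it up, stood at 1.45, 2.78 and 1.7 FPKM against 47.2, 63.6 and 81.2 FPKM (log2 fold change -4.97 ± 0.36, adjusted p = 3.58e-05). The pair of CXCL12 receptors thus stood in opposite order in the subsets, with Cxcr4 2.41-fold higher and Ackr3 31.2-fold lower in BDL. Ackr2, another scavenging receptor, was 9.94-fold lower (5.05, 4.21 and 2.79 FPKM against 41.2, 39.8 and 38.2 FPKM), and Ccr1 5.57-fold lower. Cxcr5, the receptor for follicle entry, was at 63.5, 83 and 86.1 FPKM and 62.1, 75 and 90.9 FPKM and did not pass the test (log2 fold change 0.03, SE 0.17).

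Of 20 tested receptors for lipids and nucleotides, 6 were lower in BDL and 1 higher. S1pr3, one of the sphingosine 1-phosphate receptors of MZ B cells, was at 2.25, 2 and 2.18 FPKM in BDL and 61.5, 41.6 and 78.5 FPKM in MZ cells (log2 fold change -4.71 ± 0.21, adjusted p = 3.41e-06). S1pr4, another receptor for that lipid, was the one higher in BDL, 26.4, 17.3 and 26 FPKM against 7.27, 5.15 and 8.26 FPKM (log2 fold change 1.74 ± 0.30, adjusted p = 0.0037). S1pr1, which governs exit from tissue, was at 94.1 FPKM in BDL and 160.2 FPKM in MZ cells (log2 fold change -0.76, adjusted p = 0.0102). Gpr34, Gpr55, Lpar6 and the prostaglandin E2 receptor Ptger4 were lower with Ptafr and S1pr3, with log2 fold changes from -4.71 for S1pr3 to -1.25 for Ptger4. Regulators of G protein signals differed too: Rgs10 measured 5.26, 5.25 and 6.32 FPKM in BDL and 55.3, 49.5 and 65.1 FPKM in MZ cells (log2 fold change -3.31 ± 0.12, adjusted p = 1.78e-06), Rgs3 4.09, 4.14 and 3.61 FPKM and 11, 10.8 and 14.7 FPKM, and Rgs13 3.42, 4.12 and 6.37 FPKM and 0.133, 0.251 and 0.0676 FPKM (log2 fold change 4.26 ± 0.33, adjusted p = 5.04e-05). Rgs13 was the only one of the 9 tested RGS genes called higher in BDL, and Rgs10 and Rgs3 were the called lower ones.

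Semaphorins, plexins and neuropilins, guidance ligands and their receptors, had 6 of 10 tested genes lower in BDL, 0 higher, and a median of -1.30. Plxnd1, a semaphorin receptor, was at 4.42, 4.62 and 4.75 FPKM in BDL and 39.6, 42.1 and 53.7 FPKM in MZ cells (log2 fold change -3.25 ± 0.12, adjusted p = 2.13e-06), and Nrp2, a coreceptor, at 0.633, 0.537 and 0.55 FPKM and 8.96, 8.58 and 12.6 FPKM (log2 fold change -3.89 ± 0.16, adjusted p = 2.81e-06). Sema7a, a membrane-anchored semaphorin, measured 9.09, 9.49 and 6.21 FPKM and 50.5, 68.1 and 67.6 FPKM (log2 fold change -2.90 ± 0.19, adjusted p = 2.14e-05). Its receptor gene Plxnc1 was lower in the same libraries, 13, 12.8 and 13.6 FPKM against 33.3, 28.6 and 38.9 FPKM (log2 fold change -1.34 ± 0.11, adjusted p = 6.8e-05). Sema6b and Sema5a were the other 2, at -2.20 and -1.26 (Sema5a -0.75 with 1 FPKM added).

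Of 10 tested integrins, 3 were higher and 0 lower, with a median of -0.15, and of 24 other adhesion genes, 7 were higher and 1 lower, with a median of 0.14, beside 3.47% of all rows called higher and 4.34% lower. Itgb7, the beta chain of the gut-homing integrin, was at 47.8, 43 and 53.8 FPKM in BDL and 10, 12.1 and 11.3 FPKM in MZ cells (log2 fold change 2.10 ± 0.12, adjusted p = 1.2e-05). Itga6 measured 4.68, 4.21 and 6.09 FPKM and 0.728, 0.795 and 0.731 FPKM (log2 fold change 2.56 ± 0.13, adjusted p = 7.13e-06). Itgal and Itgb2, which form LFA-1, and Itga4 and Itgb1, which form VLA-4, were not called, at -0.55, -0.25, 0.15 and -0.84. Itgb3 was called at 1.16, and at 0.86 with 1 FPKM added it was not. Alcam, which binds CD6 on T cells, stood at 6.45, 6.36 and 7.1 FPKM against 0.642, 0.673 and 0.529 FPKM (log2 fold change 3.24 ± 0.10, adjusted p = 1.78e-06). Slamf1, a self-binding receptor of lymphocytes, measured 14.8, 12.2 and 18 FPKM and 3.68, 2.59 and 3.95 FPKM (log2 fold change 2.11 ± 0.20, adjusted p = 0.000137). Sdc1, Spn, Icam2 and Selplg were also higher, and Epcam was the gene lower in BDL, 1.94 FPKM against 5.17 FPKM. Of 16 tetraspanins 3 were lower in BDL, with Tspan15 at 1.15, 0.968 and 0.685 FPKM against 11.4, 21.7 and 24.6 FPKM (log2 fold change -4.18 ± 0.29, adjusted p = 2.68e-05). Tspan31 was the weakest of these with a log2 fold change of -0.94 without MZ replicate 3, which ended its call.

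**Figure D3:**
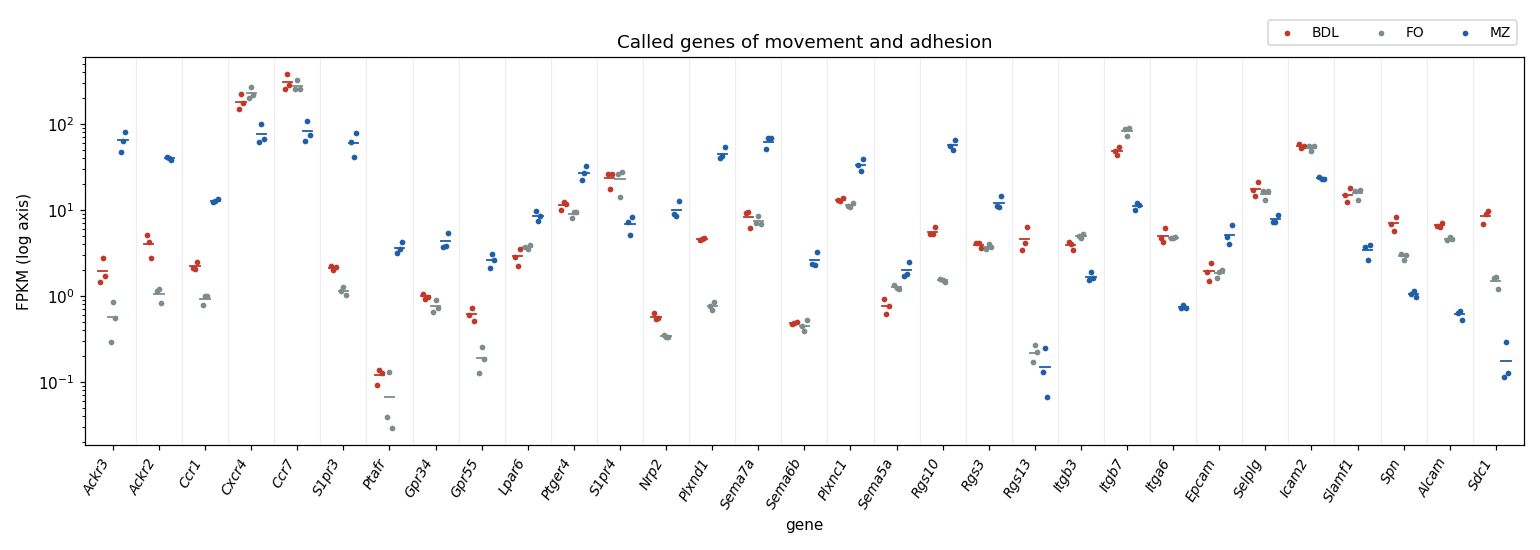
FPKM (log axis) per library of called genes of chemokine, lipid and nucleotide receptors, semaphorin receptors and ligands, RGS proteins, integrins and other adhesion molecules, with 3 points and a mean bar for BDL (red), FO (grey) and MZ (blue) cells. Blue points lie above red ones for all 6 semaphorin and receptor genes from Nrp2 to Sema5a and for Ackr3 and Rgs10, and below them for the integrins Itgb3, Itgb7 and Itga6 and for Ccr7 and Rgs13.

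Of 50 tested genes of B cell receptor signalling, the chain that passes on antigen binding, 1 was higher in BDL, 2 lower and 47 not called, near the shares of all rows (3.47% and 4.34%), with a median of 0.20, and the number lower was 4 without BDL replicate 2 or MZ replicate 1 and 5 with quantile normalization. Rasgrp3, an activator of Ras, measured 46.4, 43.3 and 49.2 FPKM and 23.1, 19.3 and 20.4 FPKM (log2 fold change 1.14 ± 0.09, adjusted p = 5.06e-05), and Nfatc2, a calcium-responsive factor, 4.35, 5.66 and 6.25 FPKM and 10.6, 12.1 and 13.7 FPKM (log2 fold change -1.16 ± 0.15, adjusted p = 0.000953). Several of the 47 lay close to 2-fold, among them Blnk at -0.97 and Malt1 at -0.996, both with an adjusted p under 0.05.

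Of 20 tested genes in the list of inhibitory surface receptors, 4 were lower in BDL and 1 was higher. Of the 4, Ptpn22 is no surface receptor. Lair1, a collagen receptor that inhibits leukocytes, was at 0.237, 0.258 and 0.295 FPKM in BDL and 5.8, 5.5 and 7.97 FPKM in MZ cells (log2 fold change -4.15 ± 0.18, adjusted p = 3.35e-06). Lilrb4, an inhibitory receptor with a close copy in the mouse genome that makes its reads uncertain, measured 1.7, 2.25 and 0.728 FPKM and 33.1, 44.5 and 26.8 FPKM (log2 fold change -4.49 ± 0.39, adjusted p = 9.33e-05). Cd300lf, which binds phospholipids, stood at 2.81, 3.48 and 1.18 FPKM against 18.6, 27.4 and 14.9 FPKM (log2 fold change -3.06 ± 0.38, adjusted p = 0.00064). Ptpn22, a phosphatase of antigen receptor signals, was at 18.3 FPKM against 47.8 FPKM. Btla, an inhibitory receptor for HVEM, was higher in BDL, 226, 215 and 135 FPKM against 96.9, 94.3 and 65.5 FPKM (log2 fold change 1.15 ± 0.22, adjusted p = 0.0063), but its log2 fold change was 0.97 without MZ replicate 3. Of 12 tested Fc receptors and Fc receptor-like genes, Fcer2a, Fcgrt and Faim3 were higher and Fcrl5 lower. Fcgrt, the neonatal Fc receptor that recycles IgG, was at 11.2, 11.6 and 16.1 FPKM in BDL and 1.87, 2.27 and 1.95 FPKM in MZ cells (log2 fold change 2.60 ± 0.15, adjusted p = 1.25e-05), and the inhibitory Fcgr2b was not called, at -0.49. Of 10 tested complement receptors and regulators, 2 were higher and 2 lower, 1 of each being a gate gene. Cd59a, which blocks the membrane attack complex, was at 0.278, 0.127 and 0.0861 FPKM in BDL and 2.63, 2.21 and 3.88 FPKM in MZ cells (log2 fold change -3.54 ± 0.34, adjusted p = 0.000148), while Cd55 was higher in BDL.

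Toll-like receptors detect microbial products. Of 29 tested genes of that system, 2 were lower in BDL, 1 was higher and 26 were not called, with a median of -0.06. These counts are near the 4.34% and 3.47% of all rows. The number lower was 4 with upper quartile scaling or quantile normalization, and also without BDL replicate 3 or MZ replicate 2. Tlr3, the receptor for double-stranded RNA, was at 0.526, 0.423 and 0.669 FPKM in BDL and 10.9, 8.79 and 15.3 FPKM in MZ cells (log2 fold change -4.18 ± 0.22, adjusted p = 8.22e-06). Ly96, which encodes the MD-2 part of the endotoxin receptor, measured 6.01, 4.6 and 6.68 FPKM and 19.5, 18.7 and 24.7 FPKM (log2 fold change -1.85 ± 0.17, adjusted p = 0.000112), while Tlr4 itself was at 3.05 and 4.38 FPKM and not called (adjusted p = 0.306). Tlr7 and Cd180 were both at -0.97, just under 2-fold, and Tlr9 at -0.09. Ticam2, an adaptor of TLR4, was the gene higher in BDL, at 1.68, and at 0.91 with 1 FPKM added it was not called.

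Of 31 tested cytokine receptors, 4 were lower and 2 higher in BDL. Il9r had the widest gap, 7.44, 6.38 and 3.58 FPKM in BDL and 106, 97.7 and 92.9 FPKM in MZ cells (log2 fold change -4.13 ± 0.23, adjusted p = 1.03e-05), with FO B cells between them at a mean of 12.6 FPKM. Csf2rb, the shared chain of the receptors for interleukin 3, interleukin 5 and GM-CSF, measured 5.59, 5.46 and 4 FPKM and 23.6, 24.1 and 23.1 FPKM (log2 fold change -2.23 ± 0.12, adjusted p = 9.68e-06). Il15ra was the weakest, and at -0.85 without BDL replicate 3 it was not called. Csf2rb2, the close copy of Csf2rb, was lower as well, and the split of reads between these copies is uncertain. Il4ra, the interleukin 4 receptor, was higher in BDL with 53.4, 54.1 and 57.8 FPKM against 19.1, 24.6 and 21.9 FPKM (log2 fold change 1.34 ± 0.10, adjusted p = 4.7e-05). Il21r was higher at 1.12, and at 0.98 with quantile normalization it was not called. In the TNF receptor list, Ngfr was higher, 2.47 FPKM against 0.581 FPKM, and the death receptor Tnfrsf21 lower, 2.85 FPKM against 6.96 FPKM. Of 9 tested Ly6 genes, which lie in a cluster of near copies, Ly6c2 was higher in BDL (17.3, 15.6 and 14.4 FPKM against 2.42, 3.37 and 2.04 FPKM) and Ly6a, Ly6i and Ly6k were lower.

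Of 16 tested costimulatory and coinhibitory ligands, through which B cells act on T cells, 4 were lower in BDL and 2 higher. Cd80, which binds CD28 and CTLA-4, was at 0.821, 0.755 and 0.522 FPKM in BDL and 2.79, 3.14 and 2.22 FPKM in MZ cells (log2 fold change -1.82 ± 0.22, adjusted p = 0.000485), and Cd86, the other ligand of CD28, at 10.5, 11 and 10.2 FPKM and 20.4, 27.4 and 23.1 FPKM (log2 fold change -1.14 ± 0.12, adjusted p = 0.000238). Cd274, which encodes PD-L1, measured 35.8, 50.6 and 22.2 FPKM and 98.5, 124 and 96.2 FPKM (log2 fold change -1.62 ± 0.27, adjusted p = 0.00284). Pvr was lower at -1.44. Cd200, whose receptor restrains myeloid cells, was higher in BDL with 18.2, 14.8 and 24.6 FPKM against 4.15, 3.73 and 4.78 FPKM (log2 fold change 2.13 ± 0.21, adjusted p = 0.000161). Cd276 was higher at 1.51, from a low level, and not called with 1 FPKM added (0.71). Icosl was not called, at 76.9 FPKM in BDL and 58 FPKM in MZ cells.

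Antigen presentation by MHC class II showed 0 calls among 25 tested genes, with a median of 0.09. The list ran from -0.70 for Ctsb, a lysosomal protease, to 0.90 for Nfyb, a subunit of the NF-Y factor. H2-Ab1, a chain of the I-A molecule, was at 1131, 1205 and 1187 FPKM in BDL and 1161, 1319 and 1267 FPKM in MZ cells. In the list of CD1d and MHC class I, 3 of 33 tested genes were lower, of which Cd1d1 and Cd1d2 hold the large folds, while H2-T22 (log2 fold change -1.05), which has near copies, lost its call without BDL replicate 1 or BDL replicate 3 (-0.91 each).

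Of 16 tested cytokine and TGF-beta activation genes, 3 were lower and 2 higher in BDL. Il10 was at 0.885, 1.15 and 0.543 FPKM in BDL and 18, 22.1 and 16.5 FPKM in MZ cells, 20.3-fold lower (log2 fold change -4.35 ± 0.23, adjusted p = 8.77e-06), with a mean of 0.151 FPKM in FO B cells. Ccl3, a chemokine for T cells and myeloid cells, measured 3.01, 4.16 and 3.58 FPKM and 20, 24 and 32.3 FPKM (log2 fold change -2.78 ± 0.20, adjusted p = 3.79e-05). Ccl4 was lower by less (-1.28), and its adjusted p rose to between 0.0513 and 0.076 without BDL replicate 1, BDL replicate 3, MZ replicate 2 or MZ replicate 3. Higher in BDL were Il12a (24.2, 21.1 and 18.5 FPKM against 9.75, 6.47 and 11.6 FPKM, log2 fold change 1.22 ± 0.22, adjusted p = 0.00471) and Ifng (0.654, 0.991 and 0.96 FPKM against 0.137, 0.279 and 0.14 FPKM, log2 fold change 1.78 ± 0.28, adjusted p = 0.00223). The log2 fold change of Il12a was 0.99 without MZ replicate 2, and that of Ifng, at a low level throughout, 0.65 with 1 FPKM added. Tnf was lower in BDL at -1.11, and its call was lost without BDL replicate 3 (-0.81), MZ replicate 1 (adjusted p = 0.0594) or MZ replicate 2 (0.0664).

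The list of ectoenzymes that handle NAD, ATP and adenosine, which also holds adenosine receptors, had 3 of 12 tested genes lower and 2 higher. Bst1, an ADP-ribosyl cyclase, was at 0.592, 0.784 and 0.72 FPKM in BDL and 3.76, 3.96 and 5.28 FPKM in MZ cells (log2 fold change -2.46 ± 0.19, adjusted p = 4.62e-05), with a mean of 0.0782 FPKM in FO B cells. Alpl, tissue-nonspecific alkaline phosphatase, showed the same order, 3.07 FPKM in BDL, 0.408 FPKM in FO and 11.6 FPKM in MZ cells. Enpp1, which produces pyrophosphate from ATP, was higher in BDL with 10.2, 10.8 and 12.8 FPKM against 2.22, 2.53 and 2.47 FPKM (log2 fold change 2.18 ± 0.10, adjusted p = 4.46e-06). Of the adenosine receptors on that list, Adora2a was higher and Adora3 lower, at 1.10 and -1.63. Adora2a was no longer 2-fold higher without MZ replicate 3 (0.96) or with upper quartile scaling (0.99), and Adora3 no longer 2-fold lower with 1 FPKM added (-0.81).

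**Figure D4:**
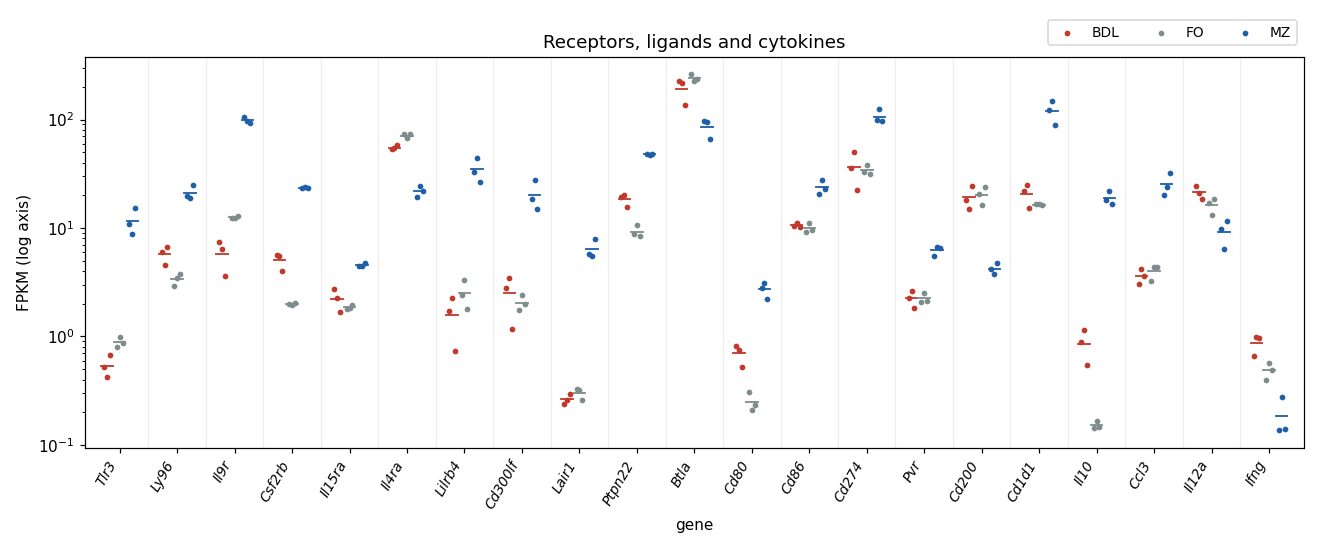
FPKM (log axis) of 21 genes of receptors, ligands and cytokines, with the phosphatase gene Ptpn22 among them, in each library. There are 3 points and a mean bar for BDL (red), FO (grey) and MZ (blue) cells. Blue points lie above red ones for Tlr3, Il9r, Lair1, Cd80, Cd1d1 and Il10, and below them for Il4ra, Btla, Cd200, Il12a and Ifng.

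Among genes of DNA replication and of mitosis, the counts of calls were near the 3.47% and 4.34% of all rows. Of 63 tested genes of DNA replication, 2 were higher and 2 lower, with a median of 0.27, and of 68 genes of G2/M phase and mitosis, 2 were higher and 2 lower, with a median of -0.09. Mki67, which encodes the Ki-67 antigen of cycling cells, was at 2.99, 3.22 and 3.29 FPKM in BDL and 5.1, 4.89 and 3.53 FPKM in MZ cells and did not reach 2-fold (log2 fold change -0.48, adjusted p = 0.0498). Gmnn, an inhibitor of replication licensing, was lower (log2 fold change -1.35 ± 0.14, adjusted p = 0.000234), and Pold1, a subunit of DNA polymerase delta, was higher (log2 fold change 1.26 ± 0.12, adjusted p = 0.000164). Cdc25b, a phosphatase that starts mitosis, stood at 29.9, 35.3 and 34.1 FPKM against 7.91, 11 and 8 FPKM (log2 fold change 1.88 ± 0.14, adjusted p = 3.87e-05). The other calls of both lists were each lost without at least 1 library. Without MZ replicate 2, Rfc1 was at 0.97, Kif18a at -0.84, Mybl2 at -0.94 and Tk1 at an adjusted p of 0.108, and Cenpa was at 0.78 without MZ replicate 3. Without MZ replicate 2 the number of mitotic genes lower in BDL was 0, against 5 without MZ replicate 3. Of 16 tested genes of the G1 phase, 3 were higher and 0 lower, with a median of 0.38. Ccnd2, which encodes cyclin D2, was at 24.3, 24.6 and 24.6 FPKM in BDL, 10.2, 12.1 and 9.23 FPKM in MZ cells and a mean of 5.27 FPKM in FO B cells (log2 fold change 1.22 ± 0.14, adjusted p = 0.000326). Its partner kinase gene Cdk6 was called at 1.07, and at 0.97 without BDL replicate 2 it was not. Cdkn2d, an inhibitor of that kinase, was also higher, 7.89, 7.14 and 10.7 FPKM against 1.68, 1.33 and 2.26 FPKM (log2 fold change 2.23 ± 0.21, adjusted p = 0.000119), as was E2f2, a factor of S phase entry, 20.8, 18.6 and 21.3 FPKM against 4.94, 4.97 and 5.38 FPKM (log2 fold change 1.97 ± 0.11, adjusted p = 9.11e-06).

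Immediate early genes, which cells switch on within minutes of a stimulus or of handling, were lower in BDL more often than higher. Of 35 tested, 11 were lower and 3 higher, with a median of -0.61 that stayed between -0.72 and -0.45 under the other settings. The count of lower genes was less steady and was 6 without MZ replicate 2, 7 without BDL replicate 1 or BDL replicate 3, and 8 without FO replicate 3. Egr2, which antigen receptor signals induce, was at 7.76, 8.12 and 8.24 FPKM in BDL and 23.3, 28.6 and 30.4 FPKM in MZ cells (log2 fold change -1.75 ± 0.11, adjusted p = 1.69e-05). Atf3, a stress-induced factor, was at 13.5, 26.1 and 9.7 FPKM in BDL and 124, 309 and 201 FPKM in MZ cells (log2 fold change -3.70 ± 0.46, adjusted p = 0.000616). Ppp1r15a, which restores translation after stress, measured 139, 164 and 164 FPKM and 331, 402 and 486 FPKM (log2 fold change -1.37 ± 0.16, adjusted p = 0.000494), and Jun 64.2, 42.7 and 83.5 FPKM and 159, 162 and 270.2 FPKM (log2 fold change -1.64 ± 0.28, adjusted p = 0.00363). Several of these genes moved with the date of the library. Fosl2 measured 0.743, 3.69 and 0.945 FPKM in BDL, 0.7, 3.22 and 1.12 FPKM in FO and 4.72, 20.5 and 6.91 FPKM in MZ cells, highest in replicate 2 of each subset. The Fosl2 call (-2.57) was lost without BDL replicate 1, BDL replicate 3, FO replicate 3 or any MZ replicate (adjusted p = 0.0531 to 0.132). Nr4a1, a sensor of antigen receptor signals in B cells, was likewise highest in replicate 2, with 285, 455 and 179.7 FPKM in BDL and 517, 938 and 657 FPKM in MZ cells (log2 fold change -1.26 ± 0.36, adjusted p = 0.0327). Its call was lost without BDL replicate 1, BDL replicate 3, FO replicate 3, MZ replicate 2 or MZ replicate 3, at adjusted p-values from 0.057 to 0.113.  The part of handling in these levels was not tested. Gadd45g was higher in BDL (7.16 FPKM against 2.42 FPKM). Zfp36l2 was called higher, but was at 0.93 without MZ replicate 1 and at 0.82 without BDL replicate 3. Dusp4 was called higher, but lost the call without any BDL replicate, any FO replicate, MZ replicate 1 or MZ replicate 3 (adjusted p = 0.0568 to 0.146). Nr4a2 was lower at -2.43, with an adjusted p of 0.055 without BDL replicate 1 and 0.0607 without MZ replicate 2.

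The BCL2 family holds genes that promote and genes that block cell death, and 6 of 19 tested members were lower in BDL and 2 higher, with a median of -0.54. Of the 6, 4 are copies of Bcl2a1, an antiapoptotic gene, whose reads cannot be safely split. The most abundant, Bcl2a1b, was at 42.9, 44.6 and 41.8 FPKM in BDL and 113, 139 and 154 FPKM in MZ cells (log2 fold change -1.64 ± 0.12, adjusted p = 4.49e-05). Pmaip1, which encodes the proapoptotic NOXA, was lower too (log2 fold change -1.21 ± 0.25, adjusted p = 0.00861), and did not reach 2-fold without BDL replicate 3. Bmf, a proapoptotic member, was higher in BDL, 12.5, 14.2 and 16.1 FPKM against 3.79, 5.93 and 5.09 FPKM (log2 fold change 1.53 ± 0.16, adjusted p = 0.000262), and Bcl2l1, which encodes BCL-XL, was called at 1.31 and at 0.76 with 1 FPKM added was not. Bcl2 and Mcl1 were not called, at 0.20 and 0.87. Of 22 tested NF-kB genes, 3 were lower and 0 higher. Traf1, an NF-kB target and adaptor, measured 6.57, 5.93 and 3.52 FPKM and 34.2, 34.5 and 31.9 FPKM (log2 fold change -2.67 ± 0.21, adjusted p = 5.21e-05), while Nfkbiz and Nfkbid were under 2-fold without BDL replicate 3 (-0.94 and -0.89).

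Cytosolic ribosomal protein genes had 0 calls among 78 tested, with a median of -0.13 and 71 of the 78 below 0. Nuclear genes of oxidative phosphorylation had 0 calls among 75, with a median of 0.19 and 67 of the 75 above 0. Over all genes, 6450 of the 11597 rows were above 0. Both medians were far under 2-fold and varied with the settings, from -0.26 to -0.01 for ribosomal and 0.07 to 0.30 for oxidative phosphorylation genes. The median over all tested rows also moved with the scaling. It was 0.06 as deposited, -0.05 with upper quartile scaling and 0.11 with every library scaled to the same total. One ribosomal row stood apart, Rps27, listed at 2267, 3662 and 9.81 FPKM in BDL and 2890, 2802 and 5641 FPKM in MZ cells, with the low value in BDL replicate 3 only. Cholesterol and fatty acid synthesis had 5 of 38 tested genes higher in BDL, 0 lower and a median of 0.41, and the count ranged from 3 (without BDL replicate 3 or MZ replicate 2) to 6. Sqle, an early oxygenase of the sterol pathway, measured 6.92, 5.31 and 8.79 FPKM and 2.42, 1.97 and 2.32 FPKM (log2 fold change 1.58 ± 0.18, adjusted p = 0.000338), and Fdps and Msmo1 were also higher, at 1.12 and 1.06. Msmo1 was under 2-fold without BDL replicate 3 (0.90) and without MZ replicate 2 (0.96). In glycolysis and the pentose phosphate pathway 1 of 29 genes was higher (Rpia) and 1 lower (Pfkm), and both were under 2-fold without BDL replicate 3 (0.94 and -0.79). Of 55 interferon-stimulated genes, 3 were lower (Isg15, Ifit3 and Gbp7) and 1 was higher (Slfn2), near the 4.34% and 3.47% of all rows. Isg15 stood at 7.12, 5.91 and 4.87 FPKM against 16.1, 16.4 and 23.1 FPKM (log2 fold change -1.61 ± 0.20, adjusted p = 0.000571). Of 48 replication-dependent histone genes, whose RNA a poly(A) library largely misses, 1 was lower, Hist1h4n, whose adjusted p was 0.0592 without MZ replicate 1 and 0.0683 without MZ replicate 2.

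**Figure D5:**
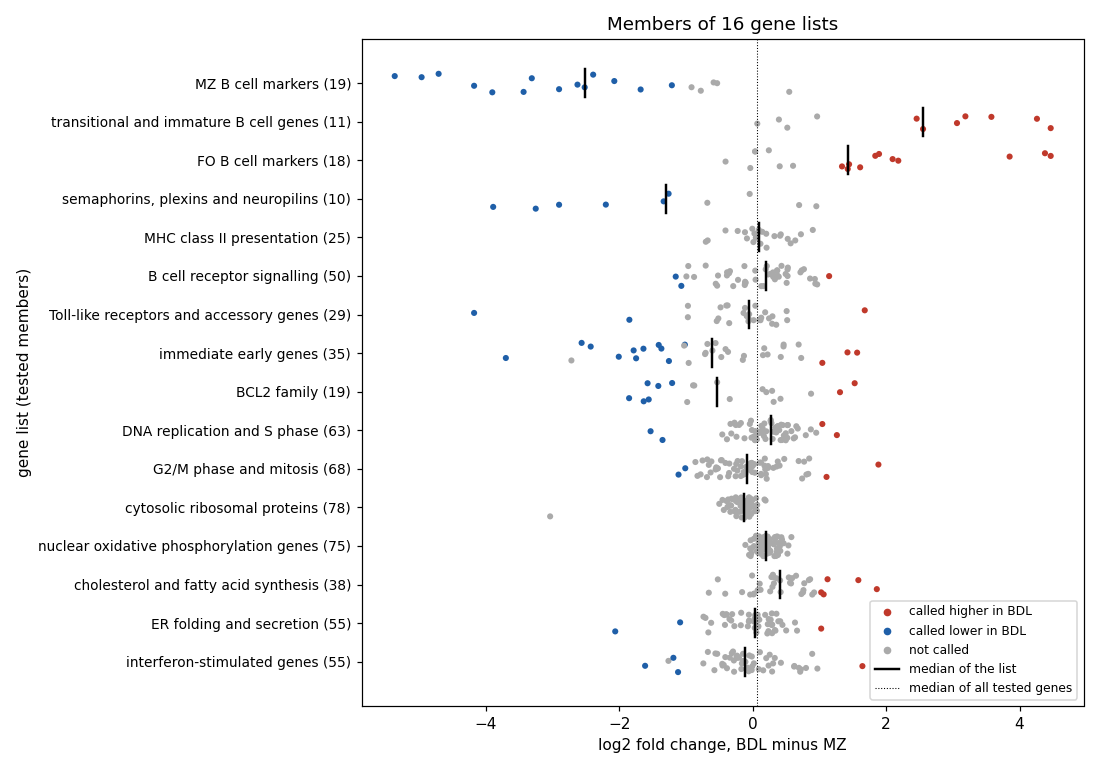
Log2 fold change, BDL minus MZ, of every tested member of 16 gene lists, with the number of tested members in brackets, red for genes called higher in BDL, blue for called lower and grey for not called. Solid bars are the medians of the lists and the dotted line is the median of all tested genes (0.06). Marker lists lie far from the line, with medians of -2.52, 2.55 and 1.43, while ribosomal (-0.13), oxidative phosphorylation (0.19) and MHC class II (0.09) genes lie close to it.

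Genes of plasma cells were called in both directions. In the list of protein folding in the endoplasmic reticulum, 2 of 55 tested genes were lower and 1 higher, with a median of 0.04. These counts do not exceed the 4.34% and 3.47% of all rows. Sec24d, the gene higher, and Dnajb9, lower with Pdia4, were both under 2-fold without BDL replicate 1 (0.93 and -0.97) or MZ replicate 3 (0.97 and -0.89). Pdia4, a disulfide isomerase, was at 85.2, 70.7 and 88.8 FPKM in BDL and 349, 324 and 346 FPKM in MZ cells (log2 fold change -2.06 ± 0.11, adjusted p = 1.02e-05). Of 19 tested plasma cell genes, 5 were higher in BDL and 3 lower. Sdc1, Txndc5, Fkbp11, Ly6c2 and Bcl2l1 were higher, and Prdm1, Mzb1 and Ly6k were lower. Mzb1, a chaperone of IgM secretion, measured 125, 117 and 156 FPKM and 298, 265 and 361 FPKM (log2 fold change -1.21 ± 0.15, adjusted p = 0.00054), while Txndc5, another disulfide isomerase, measured 73.2, 60.5 and 59.6 FPKM and 25.7, 23.6 and 25 FPKM (log2 fold change 1.37 ± 0.11, adjusted p = 5.97e-05). Igj, the joining chain of secreted IgM and IgA, was low in all 6 libraries, 0.558, 2.14 and 1.19 FPKM in BDL and 1.26, 2.87 and 1.08 FPKM in MZ cells, and Tnfrsf17, the plasma cell receptor BCMA, was listed at 0 in the 3 BDL libraries. The summed level of the plasma cell list was 487 to 524 FPKM in BDL and 680 to 774 FPKM in MZ cells.

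The study stained or measured a set of proteins on B cells, and the genes of 18 of them are in the table, 15 of them tested. Cd9, Cd1d1, Il10, Cd80 and Cd86 were lower in BDL, and Spn, Ly6c2 and Emr1 were higher. Emr1, which encodes F4/80, was at 3.13, 3.42 and 3.88 FPKM in BDL and 0.536, 0.765 and 0.759 FPKM in MZ cells (log2 fold change 2.19 ± 0.18, adjusted p = 6.91e-05). The genes Cd5, Il2ra, Cd38, Cd40, Havcr1, Ly6c1 and Mki67 did not pass, with log2 fold changes from -0.60 to 0.94. Ly6c1 passed in 3 of the other settings, at 1.01 to 1.16. Tnfsf18, which encodes GITRL, was below the tested level and so has no test, with 0.317, 0.235 and 0.252 FPKM in BDL, 0.0938, 0.115 and 0.103 FPKM in FO and 0.765, 0.689 and 0.592 FPKM in MZ cells. Klrb1c was at 0.405 and 0.149 FPKM, and Il6 was listed at 0 in BDL and at 0.0777, 0.1 and 0.099 FPKM in MZ cells.

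Markers of other cells are given because some moved with the subsets. The T cell receptor gene complex was near absent, with Cd3e at 0.137, 0.342 and 0.116 FPKM in BDL and 0.111, 0.406 and 0.0284 FPKM in MZ cells. The summed T cell list, which includes genes that B cells use, was 183 to 235 FPKM in BDL and 107 to 126 FPKM in MZ cells, and its calls were Lck, higher at 1.18 (0.98 without MZ replicate 3), and Zap70, lower at -2.25. Summed myeloid and dendritic cell markers were 13.7 to 23.3 FPKM in BDL and 17.3 to 30.4 FPKM in MZ cells, with Emr1 higher and Cd68 lower (-0.91 without BDL replicate 3 and -0.96 without MZ replicate 2). Natural killer cell markers summed to 4.65 to 9.55 FPKM and 8.21 to 15.4 FPKM, and Prf1, which encodes perforin, was lower in BDL with 0.573, 1.15 and 0.837 FPKM against 5.39, 7.26 and 8.85 FPKM (log2 fold change -2.95 ± 0.28, adjusted p = 0.000148). Erythroid and platelet markers summed to 21.3 to 25.7 FPKM in BDL and 5.11 to 8.79 FPKM in MZ cells, Car2 included. Within them the beta globin genes Hbb-bt and Hbb-b1, near copies of each other, and Car2 were higher, with Hbb-bt at 9.63, 9.66 and 11.8 FPKM in BDL, 1.88, 1.92 and 1.72 FPKM in FO and 2.29, 2.56 and 1.56 FPKM in MZ cells (log2 fold change 2.25 ± 0.17, adjusted p = 5.04e-05). Hba-a1, the alpha globin gene, was at 1.44, 1.57 and 1.08 FPKM and 2.34, 1.55 and 1.43 FPKM and not called, and Car1 and Ppbp were listed at 0 in both subsets. The part of such cells in the differences above was not tested.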

How the data were processed

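RNA of sorted splenic B cells was sequenced in 9 libraries, 3 each of BDL, FO and MZ B cells, and the 6 of BDL and MZ cells were compared. Per the labels the reads were single-end and not strand specific, while the study's methods name a stranded mRNA kit, so for overlapping genes the strand of a read may not have been used. The authors aligned reads to mm9 with TopHat2 2.1.0 and computed FPKM per gene with Cufflinks, and deposited 1 table of FPKM. The version of Cufflinks and its annotation are not given in the sources used here. Counts were not part of the table, so depth was read from the spacing of low FPKM values. Many depths were tried per library, and the one that put most values near whole fragment numbers was kept. At that depth 68.4 to 76.3% of the values examined lay within 0.1 of a whole number, too few for a count test. By chance 20% would at a depth fixed beforehand, but the share at the best of many depths is higher, so 20% is no test of the estimate. Symbols on several rows (271) had the same values on each row in 8 libraries and differed for 94 symbols in FO replicate 1, and the named largest changes leave them out.

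Rows averaging 0.5 FPKM or more entered limma 3.58.1 (R 4.3.3) as log2(FPKM + 0.1), with subset as the only term, all 9 libraries in the fit and a trend in the variance. P-values were adjusted by Benjamini-Hochberg over 11597 rows, and calls needed both an adjusted p below 0.05 and a change of 2-fold or more. On simulated data, with 200 of 11597 rows changed by 1.5 on the log2 scale, the fit recovered 86% with 0 false calls, and made 0 calls when nothing was changed. The replicate number stands for the date in the titles, whose step is not named, and pairs the libraries. Deviations from the subset means correlated across rows at 0.1, 0.182 and 0.244 within dates and at -0.189 to 0.038 between dates.

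Gene lists were described by counts and medians and not tested. The members, the lists and the tests were chosen with earlier results of these data known. The rule for naming genes took up to 3 called members per list and direction with the largest change (where none was called, the most abundant member), the 12 largest folds and 8 largest FPKM differences per direction, and every gene of the sorting markers and of the proteins the study stained. Further list members named in the text were chosen after their values were seen. Positions are from GENCODE M1 on NCBIM37 (mm9), which held 87.3% of the symbols, and promoters from RefSeq on GRCm38.p6. Plots used matplotlib 3.10.9 under Python 3.11.15. Other pseudocounts, minimums, scalings, library choices and a block for the date were tried. Results on some genes are not reported here.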

Additional observations from a re-analysis of the deposited data

How the results depend on the processing

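With 1 FPKM added in place of 0.1, 267 rows were higher in BDL. Without the 2-fold minimum, 1909 were higher and 1346 lower, so that 58.6% of calls were higher in place of 44.4%. Leaving out 1 library at a time gave 388 to 425 rows higher and 458 to 552 lower. With upper quartile scaling 338 were higher and 590 lower, so that 36.4% of calls were higher, and the median over all rows moved to -0.05. Under the remaining settings the counts were within 1.5 times those given. With the replicate block by date, 411 rows were higher and 531 lower, the 905 rows called without it were all among them, and none of the named calls was lost. Leaving out rows of repeated symbols, a choice made after seeing the data, gave 398 higher and 502 lower. Of 184 tested genes named by the rule, 170 were called, and 131 of the 170 were called in the same direction under every setting run. Of 3855 single values of those genes under other settings, 126 lost the call, 3 gained it (Ly6c1) and 0 reversed. Medians of the lists moved by more than 1 SD of the same-date medians in 183 of 1092 cases. Estimated depth limits genes near 0.5 FPKM most, and with 3 pools per subset differences under 2-fold were not called by design.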

Other observations

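Rows of microRNA, small nucleolar RNA and like genes were kept out of the largest folds, since a poly(A) library does not capture mature small RNAs and FPKM of so short a gene turns few fragments into a large value. Of 435 such rows tested, 4 were called higher in BDL and 10 lower. Mir7015 was listed at 229, 409.8 and 177 FPKM in BDL replicates 1 to 3 and at 0 in the 3 MZ libraries, and Mir6943 at 272, 243.6 and 70.2 FPKM and at 0. In the other direction, Mir6244 was listed at 46.8, 25.1 and 18.1 FPKM in BDL and 768, 951.5 and 871 FPKM in MZ cells, and Mir1192 at 0 in the 3 BDL libraries and 8.3, 7.13 and 4.23 FPKM in MZ cells. Which transcripts gave these fragments was not tested.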
